A study of Mus musculus with 20 samples.

Results

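*Ccl17* and *Ccl22* encode the chemokines that bind the receptor CCR4, and *Ccr4* encodes that receptor. These 3 genes were looked up by symbol in a table of primary mammary tumors that lists 20188 genes, and by Ensembl identifier in a table of cultured cells that lists 50667 Ensembl genes, and all 3 were present in both. They were chosen by the tumor RPKM of the ligands, already known to differ between sh4 and scr, so the tumor values are a description and carry no test of the members. The cell table played no part in that choice.

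The sh4 tumors and the scr tumors grew in FVB mice, an immunocompetent inbred strain, from Mvt1 cells, a metastatic mouse mammary carcinoma line of the same background. The sh4 cells had been transduced with a short hairpin RNA against *Rnaseh2c*, a subunit of RNase H2, and the scr cells with a scramble hairpin, and both lines were kept under puromycin. The labels give day 30 after implantation for the tumors. RNA came from small sections of whole tumor, so cancer cells and the host's stromal and immune cells were measured together. There were 3 sh4 tumors and 3 scr tumors, 1 of each from each of 3 experiments, and 3 plates of sh4 cells and 3 plates of scr cells. Each group goes back to 1 transduced line. The target *Rnaseh2c* had 10.2, 22.4 and 19.8 RPKM in sh4 tumors, against 26.9, 52.0 and 25.9 RPKM in scr tumors, and in the cells 3.19, 5.36 and 4.28 FPKM with sh4, against 5.83, 7.06 and 5.34 FPKM with scr. The tumor groups did not overlap, while sh4 plate 2 lay between the scr plates.

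CCL17 (TARC) and CCL22 (MDC) are made mainly by dendritic cells and by macrophages, in particular after exposure to interleukin-4, interleukin-13, GM-CSF or TSLP. CCR4 is carried by type 2 helper T cells, by most effector regulatory T cells and by T cells that home to the skin, and its ligands draw these cells into tissues and let them form contacts with dendritic cells. In several tumor types CCL22 is known for drawing in regulatory T cells.

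The ligand genes are neighbors. In mm9, the build of the tumor table, *Ccl22* (ENSMUSG00000031779) lies on chromosome 8 from 97269490 to 97275599 and *Ccl17* (ENSMUSG00000031780) from 97334353 to 97335935, both on the plus strand with 3 exons. Between them are 58753 bases with 1 annotated gene, the chemokine *Cx3cl1* (97295909 to 97306323). *Ccr4* (ENSMUSG00000047898) lies on chromosome 9 from 114399434 to 114405662 on the minus strand with 2 exons, and no annotated gene overlaps any of these 3. The longest annotated transcript of *Ccl17* has 513 bases, against 2216 for *Ccl22* and 2787 for *Ccr4*.

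Because interleukin-4 acts on these genes through STAT6, the 250 bases before each ligand's start were read from RefSeq (GRCm38.p6, another build than that of the tumor table) and searched for the spaced STAT letters TTCNNNNGAA, the spacing that STAT6 favors, and TTCNNNGAA, the spacing of most other STAT factors. Each motif reads the same on both strands, and the matches shown in capitals do not overlap. The *Ccl17* window is chr8:94810203-94810452 and the *Ccl22* window chr8:94745434-94745683, both plus strand.
Ccl17: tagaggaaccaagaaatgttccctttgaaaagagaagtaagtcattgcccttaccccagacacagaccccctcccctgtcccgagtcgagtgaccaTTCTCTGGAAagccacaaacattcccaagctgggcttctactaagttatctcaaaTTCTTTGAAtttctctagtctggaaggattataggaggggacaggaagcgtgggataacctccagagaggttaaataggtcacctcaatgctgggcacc
Ccl22: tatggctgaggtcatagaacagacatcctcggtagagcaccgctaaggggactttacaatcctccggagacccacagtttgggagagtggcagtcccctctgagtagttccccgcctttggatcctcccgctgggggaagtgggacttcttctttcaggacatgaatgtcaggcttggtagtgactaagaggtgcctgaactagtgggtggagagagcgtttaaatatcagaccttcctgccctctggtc
The *Ccl17* window held TTCTCTGGAA, which begins 154 bases before the start, and TTCTTTGAA, which begins 99 bases before it. The *Ccl22* window held neither, and nor did that of *Ccr4*. Over all 32851 windows of that length, 5.85% held the wider spacing, 7.02% the narrower and 0.469% both. A match of letters is not a site of binding, and the search says nothing of more distant sequence.

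*Ccl17* was the more abundant ligand in sh4 tumors and had the largest positive log2 fold change of the 13487 genes compared. It had 42.1, 104 and 45.2 RPKM in sh4 tumors 1 to 3, against 21.6, 8.59 and 5.99 RPKM in scr tumors 1 to 3. Every sh4 tumor lay above every scr tumor, and the lowest sh4 value was 1.95 times the highest scr value. The means were 63.9 ± 35.0 RPKM in sh4 tumors and 12.05 ± 8.34 RPKM in scr tumors (SD, n = 3 each), a ratio of 5.30. On the scale of log2(RPKM + 0.5) used throughout, which understates the change of low genes, the fold change of sh4 over scr was 2.43 with a standard error of 0.50. This ranked first among the 13487 genes that averaged 0.1 RPKM or more, the genes compared here.

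*Ccl22* had 20.2, 30.1 and 15.5 RPKM in sh4 tumors 1 to 3, against 12.2, 6.32 and 8.61 RPKM in scr tumors 1 to 3. The groups again did not overlap, but the lowest sh4 value was only 1.27 times the highest scr value. The means were 21.9 ± 7.50 RPKM in sh4 tumors and 9.03 ± 2.94 RPKM in scr tumors (SD, n = 3 each), a ratio of 2.43. The log2 fold change was 1.23 with a standard error of 0.31, which ranked 34 of the 13487 genes.

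Among those 13487 genes, 4.19% had all 3 sh4 tumors above all 3 scr tumors, 4.98% had all 3 below, and 0.504% had a log2 fold change of at least 1. Since these differences chose the ligands, nothing is read from the members' place in those shares. By limma, a linear model that shares the estimate of spread across genes, 0 genes were called higher (0.0%) and 0 lower (0.0%) at a Benjamini-Hochberg adjusted p under 0.05, while 564 genes had an unadjusted p under 0.05. The median log2 fold change over all genes compared was -0.04, and 42.6% of them were positive.

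*Ccr4* was a rare transcript. It had 0.515, 0.321 and 0.224 RPKM in sh4 tumors 1 to 3, against 0.233, 0.224 and 0.379 RPKM in scr tumors 1 to 3, and the groups overlapped throughout. The means were 0.353 ± 0.148 RPKM in sh4 tumors and 0.279 ± 0.0869 RPKM in scr tumors (SD, n = 3 each), and the log2 fold change was 0.12 with a standard error of 0.17. Without sh4 tumor 1 it was -0.01. In bulk tissue a change in the number of cells that carry a transcript and a change in its amount per cell cannot be told apart, here and for every tumor value that follows.

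**Figure D1:**
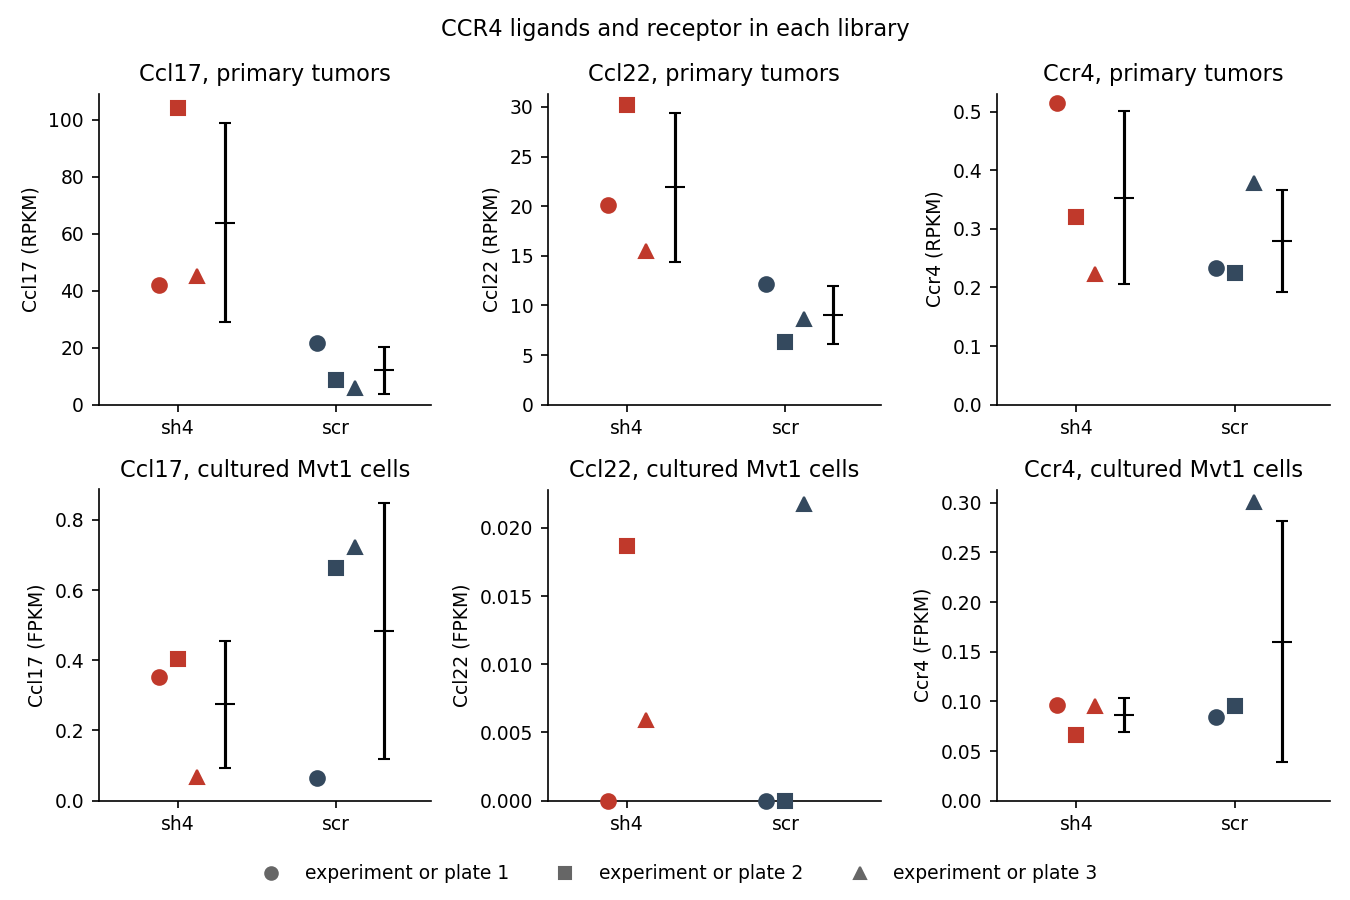
Levels of *Ccl17*, *Ccl22* and *Ccr4* in each primary tumor (top, RPKM) and each culture of Mvt1 cells (bottom, FPKM), sh4 at left and scr at right. Symbols mark the experiment of a tumor or the plate of a culture, and the bars beside them give the mean and SD of 3 libraries, left out for *Ccl22* in cells where 3 of 6 libraries are listed at 0. All sh4 tumors lie above all scr tumors for both ligands, with sh4 tumor 2 highest at 104 and 30.1 RPKM, and not for *Ccr4*, and no gene separates the cultures.

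The size of the ligand difference varied with the experiment. Within experiments 1, 2 and 3 the *Ccl17* level in the sh4 tumor was 1.95, 12.1 and 7.55 times that of the scr tumor, or 0.95, 3.53 and 2.82 on the log2 scale. For *Ccl22* the ratios were 1.66, 4.77 and 1.80, or 0.71, 2.17 and 0.81 on the log2 scale. Experiment 2 thus had the widest gap for both ligands and experiment 1 the narrowest. For *Ccr4* the log2 differences were 0.47, 0.18 and -0.28, which is 1 experiment against the direction of the other two. *Rnaseh2c* itself differed by -1.36, -1.20 and -0.38, so the order of the experiments by the target's difference was not that of either ligand.

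*Ccl17* also differed more than *Ccl22* within each tumor. The ratio of their RPKM values was 2.09, 3.46 and 2.92 in sh4 tumors 1 to 3, against 1.77, 1.36 and 0.696 in scr tumors 1 to 3. The lowest sh4 ratio was above the highest scr ratio, and in scr tumor 3 alone *Ccl22* was the more abundant ligand. The mean ratio was 2.82 ± 0.689 in sh4 tumors and 1.28 ± 0.544 in scr tumors (SD, n = 3 each).

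**Figure D2:**
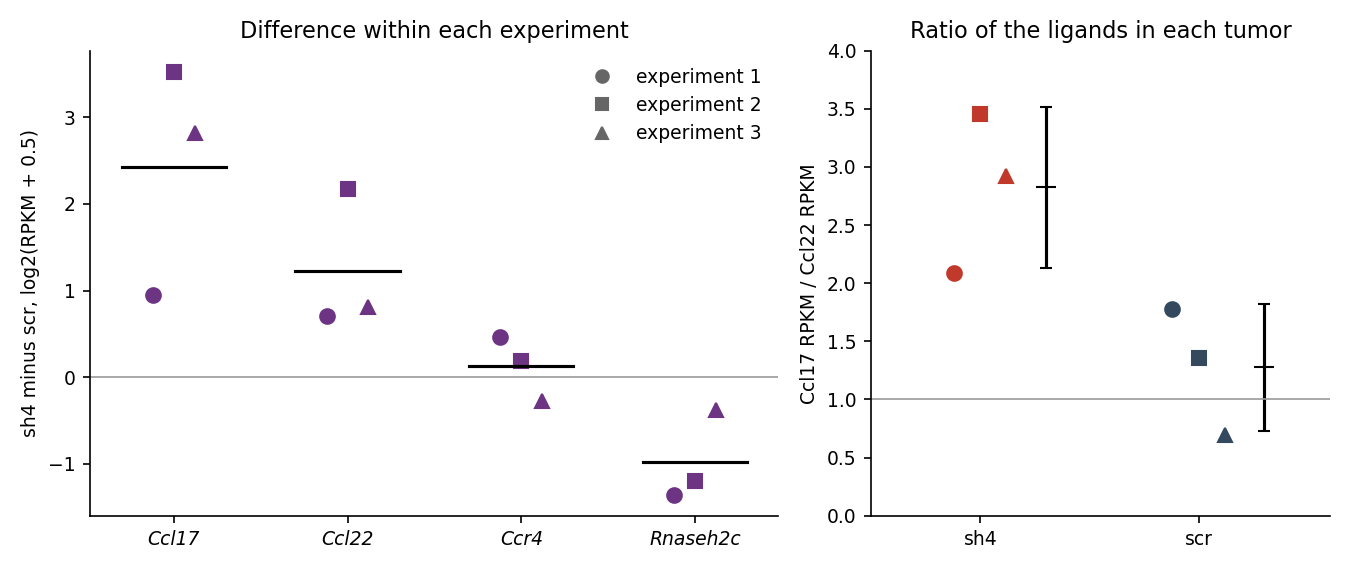
Left, the difference of sh4 minus scr within each experiment on the scale of log2(RPKM + 0.5), with a bar at the mean of 3 experiments. Right, the ratio of *Ccl17* to *Ccl22* RPKM in each tumor, with mean and SD beside the points and a line at equal levels. Experiment 2 has the widest difference for both ligands (3.53 and 2.17), and the sh4 ratios (2.09 to 3.46) lie above the scr ratios (0.696 to 1.77).

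Leaving out 1 tumor at a time moved the log2 fold change of *Ccl17* between 2.02 (without sh4 tumor 2) and 2.94 (without scr tumor 1), and that of *Ccl22* between 0.98 (without sh4 tumor 2) and 1.46 (without scr tumor 1). Scr tumor 2 stood apart in fat genes, with *Fabp4*, a lipid carrier of adipocytes, at 1514 RPKM, against 21.4 to 190 RPKM in the other tumors. Without it the log2 fold change was 2.30 for *Ccl17* and 1.01 for *Ccl22*. Libraries also differed in the balance of short and long transcripts. Each gene's log2 level was centred on its mean over the 6 tumors, and an index was taken per tumor. The index, the median for transcripts under 1000 bases minus that for transcripts over 4000 bases, was -0.37, 0.41 and 0.06 in sh4 tumors 1 to 3 and -0.21, 0.30 and -0.30 in scr tumors 1 to 3. With this index as a covariate, chosen after the values were seen, the log2 fold change was 2.35 for *Ccl17* and 1.23 for *Ccl22*.

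The other CC chemokines gave the scale for these levels. Of 20 CC chemokine genes in the tumor table, 17 passed the minimum of 0.1 RPKM. By mean level *Ccl17* ranked 4 of 20 in sh4 tumors and 8 of 20 in scr tumors, and *Ccl22* ranked 9 in sh4 and 10 in scr tumors. The place of *Ccl17* among its neighbors in sh4 tumors, *Ccl12* at 73.2 and *Ccl7* at 47.6 RPKM on average, is within the spread of its own 3 values. *Ccl8* was far above all others at 1182 ± 96.8 RPKM in sh4 tumors and 982 ± 303 RPKM in scr tumors.

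Of the 15 other CC chemokines compared, 10 were positive, beside 42.6% of all genes, and 5 negative in log2 fold change (median 0.26). In 4 of the 15 all sh4 tumors lay above all scr tumors, beside 4.19% of all genes, and in 1 all lay below, beside 4.98%. *Ccl24* (eotaxin-2), which draws eosinophils through CCR3 and is itself induced by interleukin-4, had 6.94, 20.8 and 4.65 RPKM in sh4 tumors, against 3.14, 3.33 and 1.02 RPKM in scr tumors (log2 fold change 1.75). *Ccl19*, a ligand of CCR7 with near-identical gene copies in the mouse, among which reads may be split, had 1.33, 2.01 and 1.15 RPKM in sh4 tumors, against 0.287, 0.467 and 0.251 RPKM in scr tumors (log2 fold change 1.24). *Ccl1*, a ligand of CCR8, and *Ccl5*, a chemokine of T cells, were the other 2, with log2 fold changes of 1.12 and 0.98.

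*Ccl2*, which draws monocytes through CCR2, was the chemokine on the other side. It had 47.5, 35.7 and 29.4 RPKM in sh4 tumors, against 79.5, 59.9 and 63.8 RPKM in scr tumors (log2 fold change -0.86). None of these 15 genes passed the limma test, nor did any other gene compared in tumors.

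**Figure D3:**
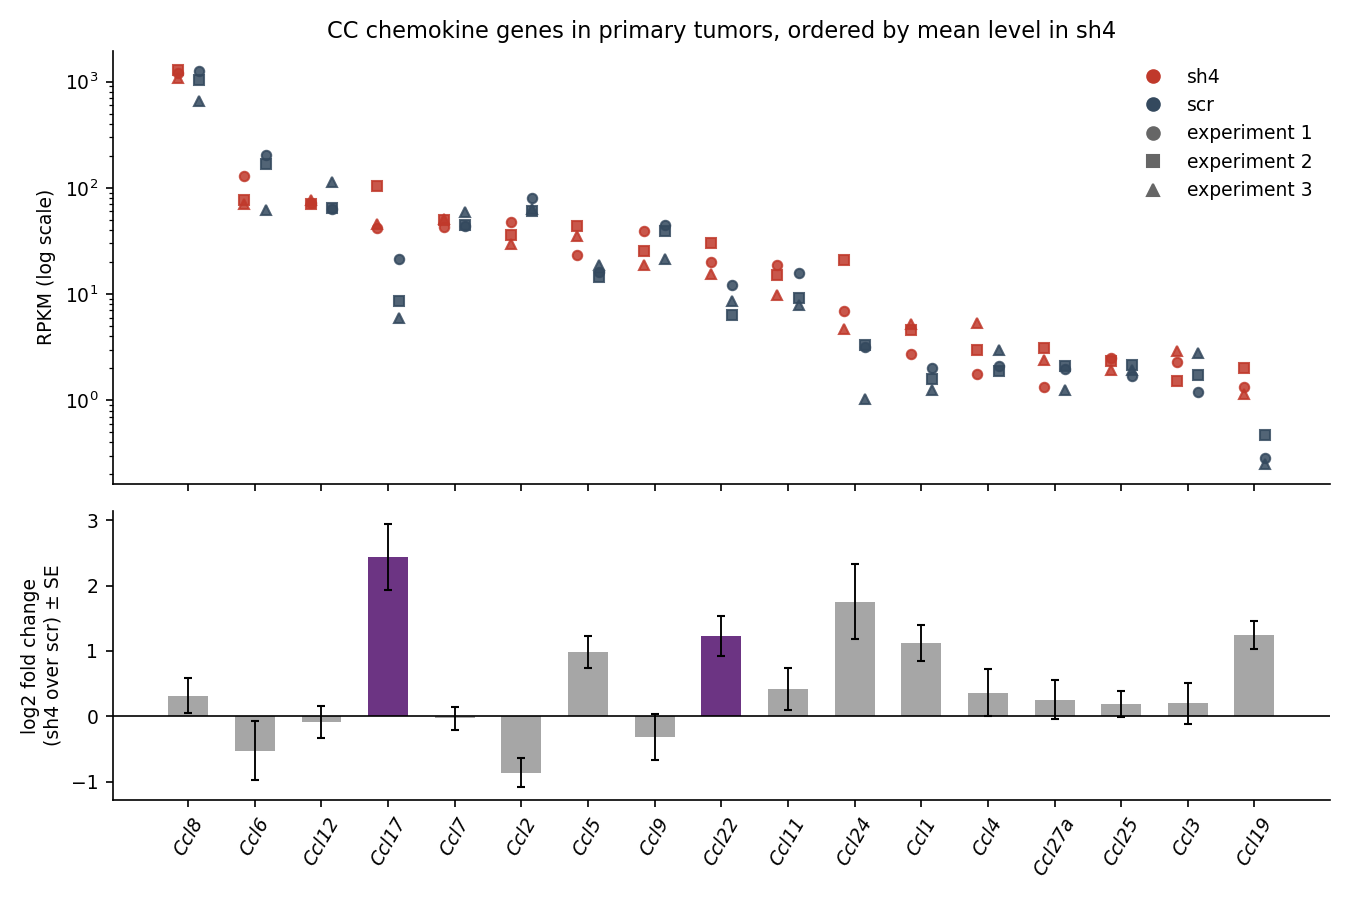
Top, RPKM on a log axis of each CC chemokine gene in each tumor, sh4 left of scr, ordered by mean level in sh4 tumors. Bottom, log2 fold change of sh4 over scr with its standard error, on log2(RPKM + 0.5), with the CCR4 ligands in purple. *Ccl17* has the largest value (2.43), followed by *Ccl24* (1.75), *Ccl19* (1.24) and *Ccl22* (1.23), and *Ccl2* the lowest (-0.86).

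Among 11 CC chemokine receptors, *Ccr4* ranked 8 by mean level in sh4 tumors and 7 in scr tumors. *Ccr2* and *Ccr1*, receptors of monocytes and macrophages, led with means of 15.4 and 13.5 RPKM in sh4 tumors, against 19.5 and 17.9 RPKM in scr tumors. The 10 other receptors split evenly, with 5 positive, beside 42.6% of all genes, and 5 negative log2 fold changes (median 0.02). The median was -0.21 without scr tumor 2, -0.15 at a mean of at least 1 RPKM, -0.06 without sh4 tumor 3, -0.01 after quantile normalization and 0.13 without sh4 tumor 2. *Ccr7*, which guides mature dendritic cells and naive T cells toward lymph nodes, was the 1 receptor with all sh4 tumors above all scr tumors, beside 4.19% of all genes, with 6.37, 8.19 and 4.51 RPKM in sh4 tumors, against 3.96, 3.90 and 3.42 RPKM in scr tumors (log2 fold change 0.65). *Dpp4*, the protease that trims CCL22 in humans, had 2.40, 0.992 and 1.10 RPKM in sh4 tumors, against 3.05, 1.03 and 0.941 RPKM in scr tumors (log2 fold change -0.06). It was the only 1 of 3 genes for binding or cleavage of the ligands that was matched in the tumor table.

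The known inducers of the ligands were barely detected or split in direction. *Il4* was listed at 0, 0.224 and 0.0373 RPKM in sh4 tumors and at 0 in all 3 scr tumors, and *Il13* at 0.234, 0.0939 and 0.0704 RPKM in sh4 tumors, against 0.0703 RPKM in scr tumor 1 and 0 in scr tumors 2 and 3. Both were named with their values seen. Neither reached the minimum mean of 0.1 RPKM, and no fold change is given for them. Of the 12 inducing cytokines and receptors compared, 5 were positive, beside 42.6% of all genes, and 7 negative in log2 fold change (median -0.10). Leaving out 1 tumor at a time moved the median between -0.22 (without scr tumor 2) and 0.26 (without scr tumor 1), and it was also positive without sh4 tumor 2 (0.06), sh4 tumor 3 (0.01) or scr tumor 3 (0.07). The receptor subunit *Il4ra* had 21.8, 23.9 and 31.7 RPKM in sh4 tumors, against 32.4, 33.3 and 26.8 RPKM in scr tumors (log2 fold change -0.26). The shared subunit *Il2rg* had a log2 fold change of -0.09 and *Il13ra1* one of 0.12. The cytokines among the 12, named with their values seen, were *Csf2* (0.34), *Tslp* (-0.11) and *Il33* (-0.28). *Csf2*, which encodes GM-CSF, lay between 0.03 and 0.52 with 1 tumor left out, and *Tslp* between -0.44 and 0.14. The rest of the 12 were receptor genes.

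In 2 of those 12 all sh4 tumors lay above all scr tumors, beside 4.19% of all genes. *Il7r*, a subunit of the receptors for interleukin-7 and TSLP, had 5.00, 2.77 and 2.17 RPKM in sh4 tumors, against 1.73, 0.911 and 2.01 RPKM in scr tumors (log2 fold change 0.87), and is also a gene of T cells. *Csf2rb*, the shared subunit of the receptors for GM-CSF, interleukin-3 and interleukin-5, named with its values seen, had 6.24, 5.70 and 5.79 RPKM in sh4 tumors, against 5.60, 4.41 and 4.74 RPKM in scr tumors (log2 fold change 0.25).

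The transcription factors through which the ligands are induced are STAT and NF-κB members and IRF4. Of 9 compared, 3 were positive, beside 42.6% of all genes, and 6 negative in log2 fold change. Their median was -0.11 (0.00 when sh4 tumor 2 was left out, -0.20 when sh4 tumor 1 was). *Stat6* had 20.5, 13.8 and 17.3 RPKM in sh4 tumors, against 20.5, 18.5 and 21.9 RPKM in scr tumors (log2 fold change -0.25), and *Rela* 9.29, 9.33 and 10.8 RPKM in sh4 tumors, against 9.82, 9.32 and 10.95 RPKM in scr tumors (log2 fold change -0.03). In none of the 9 were the groups apart, beside 4.19% of all genes with all sh4 tumors above and 4.98% with all below.

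Other genes that interleukin-4 induces in macrophages and dendritic cells were mixed. Of 13 compared, 5 were positive, beside 42.6% of all genes, and 8 negative (median -0.07). Leaving out 1 tumor at a time moved the median between -0.39 (without scr tumor 3) and 0.07 (without scr tumor 1), and it was 0.03 without sh4 tumor 2. *Retnla*, a secreted marker of macrophages activated by interleukin-4, had 86.4, 80.4 and 23.1 RPKM in sh4 tumors, against 120.1, 60.7 and 10.1 RPKM in scr tumors, a wide overlap. *Clec10a*, a lectin, had a log2 fold change of -0.09 and the transglutaminase *Tgm2* one of -0.40. *Ccl24*, described above, and *Pdcd1lg2* were the 2 whose sh4 values all lay above the scr values, beside 4.19% of all genes. *Pdcd1lg2*, which encodes the checkpoint ligand PD-L2 of dendritic cells, had 1.82, 1.56 and 1.56 RPKM in sh4 tumors, against 1.16, 0.470 and 0.655 RPKM in scr tumors (log2 fold change 0.80).

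Markers of dendritic cells, drawn from several subsets, were mostly on the higher side in sh4 tumors. Of 15 such genes, 13 were positive in log2 fold change, beside 42.6% of all genes, and in 3 all sh4 tumors lay above all scr tumors, beside 4.19% of all genes. Without scr tumor 2, the library rich in fat genes, 9 of the 15 were positive. The median was 0.14, and leaving out 1 tumor at a time moved it between 0.11 (without sh4 tumor 3) and 0.40 (without sh4 tumor 2), with 0.25 without sh4 tumor 1, 0.26 without scr tumor 1 and 0.24 without scr tumor 3. *Cd74*, the invariant chain of MHC class II and the most abundant of them, had 942, 1699 and 1634 RPKM in sh4 tumors, against 888, 782 and 960 RPKM in scr tumors (log2 fold change 0.66). *Batf3*, a transcription factor of cross-presenting dendritic cells, had 6.18, 14.9 and 13.7 RPKM in sh4 tumors, against 5.33, 11.2 and 4.41 RPKM in scr tumors (log2 fold change 0.70). *Mgl2*, a lectin of CD301b dendritic cells and macrophages, differed by -0.07. The other negative gene of the 15, named with its value seen, was *Cd209a*. Its log2 fold change was -0.62, and -1.05 to -0.32 with 1 tumor left out.

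Of 19 genes of mature dendritic cells, a state known for making both chemokines, 17 were positive, beside 42.6% of all genes, and in 7 all sh4 tumors lay above all scr tumors, beside 4.19% of all genes. The median was 0.31, and 0.20 without scr tumor 2, where 15 were positive. *Cd83* had 25.1, 27.3 and 24.3 RPKM in sh4 tumors, against 15.2, 19.7 and 17.6 RPKM in scr tumors (log2 fold change 0.54). *Tnfrsf4* (OX40), which is shared with regulatory T cells, had 7.78, 11.9 and 8.88 RPKM in sh4 tumors, against 5.20, 3.68 and 4.68 RPKM in scr tumors (log2 fold change 0.99). The ubiquitous *Tmem123* went the other way, with a log2 fold change of -0.23. The dendritic cell list and the mature one share *Ccr7*, *Fscn1* and *Cd83*.

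The ligands were also set against the mature dendritic cell genes tumor by tumor. Each gene's log2 values were centred on its mean over the 6 tumors, and the mean over a list was subtracted from the value of the ligand. For *Ccl17* the rest after the mature dendritic cell list was 0.49, 1.95 and 0.71 in sh4 tumors 1 to 3, against -0.16, -1.12 and -1.88 in scr tumors 1 to 3. For *Ccl22* it was 0.29, 1.02 and 0.04 in sh4 tumors, against -0.11, -0.69 and -0.55 in scr tumors. After the T cell list the rest for *Ccl22* was 0.25, 0.71 and -0.31 in sh4 tumors, against 0.27, -0.42 and -0.49 in scr tumors, with overlap. Since the ligands were chosen for a large tumor difference, what is left after a smaller one is a description, and nothing is read from it about cell content.

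Macrophage genes were mostly on the lower side. Of 12 compared, 3 were positive, beside 42.6% of all genes, and 9 negative, with a median of -0.28. Leaving out sh4 tumor 2 gave a median of -0.07, and leaving out sh4 tumor 1 gave -0.53. *Lyz2* had 1487, 1036 and 1137 RPKM in sh4 tumors, against 1953, 1360 and 1220 RPKM in scr tumors (log2 fold change -0.30), and the complement gene *C1qa* 513, 857 and 672 RPKM in sh4 tumors, against 509, 631 and 551 RPKM in scr tumors (0.25). *Vsig4*, a complement receptor of resident macrophages, had 1.22, 0.331 and 0.182 RPKM in sh4 tumors, against 3.37, 2.27 and 1.11 RPKM in scr tumors (log2 fold change -1.38), with sh4 tumor 1 just above scr tumor 3.

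T cells, which hold the cells that carry CCR4, showed the widest difference of the immune lists. Of 16 genes, 15 were positive, beside 42.6% of all genes, with a median of 0.88, and in 10 all sh4 tumors lay above all scr tumors, beside 4.19% of all genes. *Cd3g* had 16.7, 32.8 and 19.6 RPKM in sh4 tumors, against 10.8, 5.67 and 10.3 RPKM in scr tumors (log2 fold change 1.31). *Cd8b1*, of cytotoxic T cells that mostly lack CCR4, had 3.96, 6.29 and 7.02 RPKM in sh4 tumors, against 0.931, 1.59 and 3.16 RPKM in scr tumors (log2 fold change 1.46).

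Of the regulatory T cell genes compared, 11 of 11 were positive, beside 42.6% of all genes, and in 4 all sh4 tumors lay above all scr tumors, beside 4.19%. Without sh4 tumor 1, 8 of 11 were positive, and without scr tumor 2, 9 of the 12 then compared. The median was 0.40, against 0.27 without scr tumor 2, 0.65 with a pseudocount of 0.1 and 0.68 at a mean of at least 1 RPKM. *Foxp3*, their defining transcription factor, had 6.20, 10.8 and 8.02 RPKM in sh4 tumors, against 5.71, 7.57 and 5.67 RPKM in scr tumors (log2 fold change 0.35), with overlap. *Ctla4*, an inhibitory receptor also found on activated T cells, had 6.25, 5.74 and 6.22 RPKM in sh4 tumors, against 3.39, 0.969 and 3.68 RPKM in scr tumors (log2 fold change 1.19).

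Type 2 helper and ILC2 genes were split. Of 7 compared, 3 were positive, beside 42.6% of all genes, and 4 negative. Their median was -0.03, and 0.01 after median-ratio scaling. With 1 tumor left out it lay between -0.12 (without sh4 tumor 1) and 0.07 (without scr tumor 1). *Gata3*, their transcription factor, which mammary epithelium also expresses, had a log2 fold change of 0.19. *Areg*, an epidermal growth factor family ligand that tumor cells also make, had 2.78, 3.25 and 3.63 RPKM in sh4 tumors, against 4.98, 11.2 and 5.85 RPKM in scr tumors (log2 fold change -1.002), without overlap. No gene of any immune list passed the limma test in tumors, where 0 of all 13487 genes passed.

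Other tissues were checked in the same way. All 7 lymph node genes compared were positive, beside 42.6% of all genes, and 6 of 7 without sh4 tumor 1 or without scr tumor 1. Their median was 0.65, which was 0.30 over the 10 listed with no filter on low values. Their summed level, over the 10 listed, was 54.3, 42.6 and 17.7 RPKM in sh4 tumors, against 13.0, 9.88 and 17.6 RPKM in scr tumors, in which *Cxcl13*, a B cell chemokine, had 37.6, 27.7 and 6.27 RPKM in sh4 tumors, against 5.46, 2.17 and 8.43 RPKM in scr tumors. The defining B cell marker *Ms4a1*, looked up for this check, was at 0.0965 RPKM or less in every tumor. Of the 4 B cell genes compared, 3 were positive, beside 42.6% of all genes, with a median of 0.26. The 8 B cell genes listed summed to 6.86, 7.01 and 6.54 RPKM in sh4 tumors, against 4.46, 5.12 and 6.77 RPKM in scr tumors. All 8 endothelial genes were positive too, beside 42.6% of all genes, and 7 of 8 were positive without sh4 tumor 1. The endothelial median was 0.44 (0.71 without sh4 tumor 2). Keratinocytes, a skin source of CCL17, left little trace, with *Krt14* at 0.0724 to 0.858 RPKM and *Krt1* listed at 0 in all 6 tumors. The part of lymph node, endothelial or T cell content in the ligand difference was not tested.

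**Figure D4:**
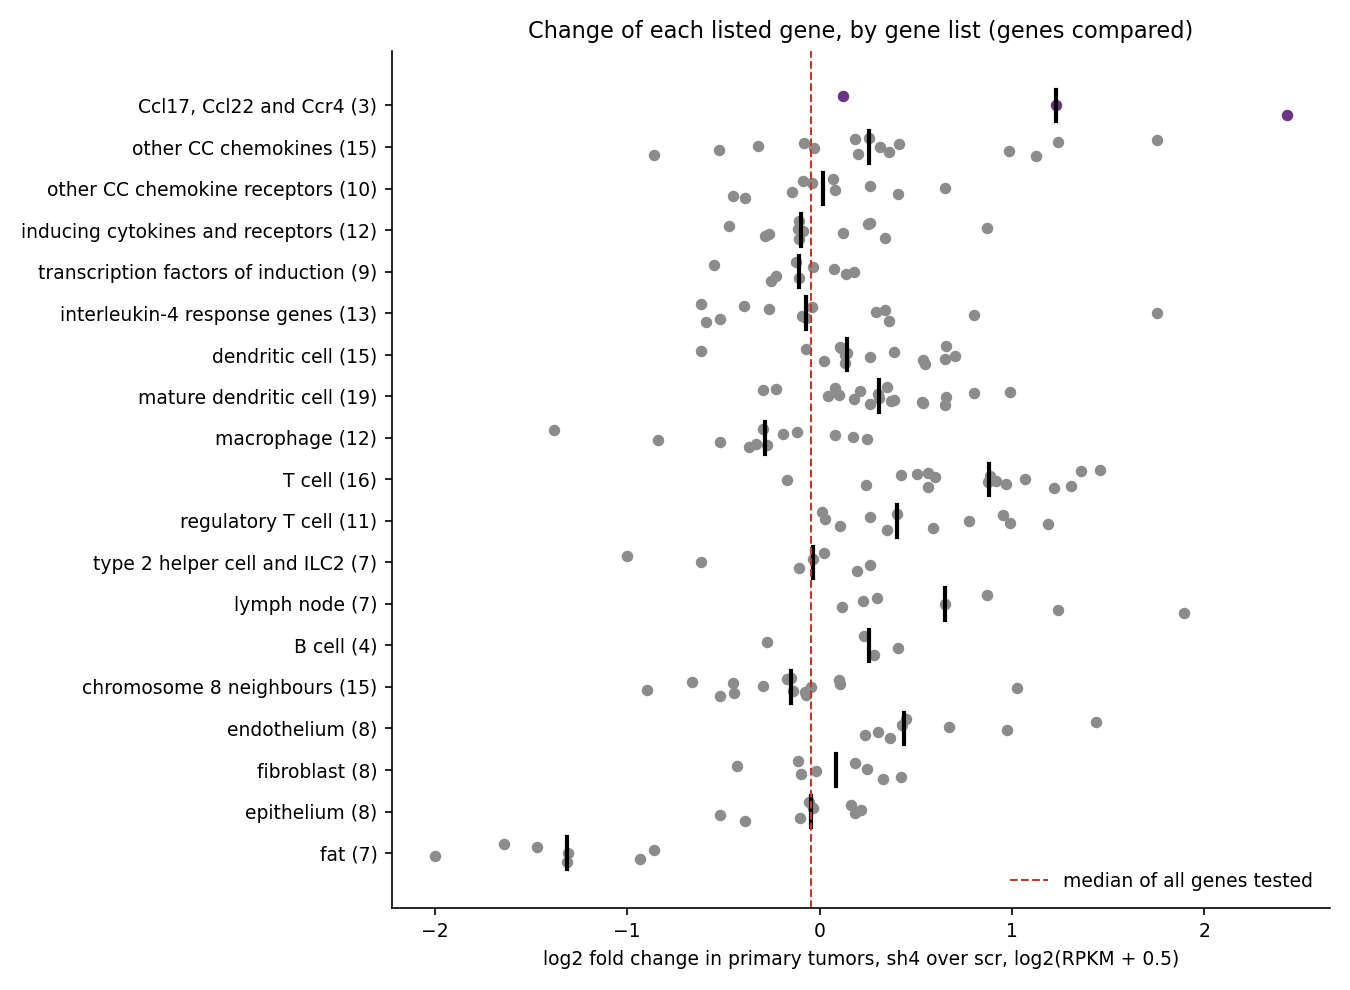
Log2 fold change of sh4 over scr in primary tumors, on log2(RPKM + 0.5), of each gene averaging 0.1 RPKM or more, by gene list, with the number of genes compared in brackets. Black bars are list medians and the dashed line is the median of all 13487 genes (-0.04). T cell genes have a median of 0.88, mature dendritic cell genes 0.31 and macrophage genes -0.28, and *Ccl17* at 2.43 lies beyond every gene of the other lists.

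The genes whose 6 tumor values ran closest to the ligands were sought among 10722 others at 1 RPKM or more on average, by the root mean square difference of centred log2 values. For *Ccl17* they were *Ccl24* (0.58), the MHC class I family genes *H2-Q2* (0.61) and *H2-M2* (0.69), *Ccl22* itself (0.74) and *Ubd*, a ubiquitin-like gene induced by interferon (0.75), beside a root mean square of 1.39 for *Ccl17* alone. *H2-Q2* had 32.4, 55.2 and 22.1 RPKM in sh4 tumors, against 10.2, 13.4 and 2.55 RPKM in scr tumors, and belongs to a family whose members can share reads.

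For *Ccl22* the nearest were *Mir25* (0.22), the T cell receptor subunit *Cd3g* (0.22), the serpin *Serpina3g* (0.24), the T cell adaptor *Sit1* (0.24) and *Tnfrsf4* (0.26), beside 0.72 for *Ccl22* alone. *Mir25* is a microRNA gene within *Mcm7*, so its RPKM in an mRNA library may hold reads of the host gene. *Ccl17* ranked only 3445 of 10722 by closeness to *Ccl22*, since its differences were larger. These are likenesses over 6 libraries and say nothing of shared control.

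The genes around the ligands on chromosome 8 were mostly on the lower side in sh4 tumors. Of 15 neighbors compared, 3 were positive, beside 42.6% of all genes, and 12 negative. The median was -0.15, which was -0.09 without scr tumor 2 and -0.24 without sh4 tumor 3. It was -0.07 after quantile normalization and -0.10 after median-ratio scaling. Housekeeping genes leaned the same way, with 2 of 12 positive and a median of -0.14. In 5 of the 15 all sh4 tumors lay below all scr tumors, beside 4.98% of all genes, and in 1 all lay above, beside 4.19%. *Cx3cl1*, the membrane chemokine between the ligands, had 11.9, 8.73 and 11.2 RPKM in sh4 tumors, against 15.6, 14.0 and 16.2 RPKM in scr tumors (log2 fold change -0.52), and was 1 of the 5. *Nlrc5*, an activator of MHC class I genes induced by interferon, was the 1 on the higher side, at 4.64, 3.70 and 5.41 RPKM, against 2.74, 1.16 and 2.31 RPKM in scr tumors (log2 fold change 1.03). The copine *Cpne2* had 5.61, 1.61 and 3.08 RPKM in sh4 tumors, against 6.12, 6.19 and 6.24 RPKM in scr tumors (log2 fold change -0.90). The most abundant neighbors, *Polr2c*, *Arl2bp* and *Fam192a*, differed by -0.07, 0.11 and -0.05.

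In culture the carcinoma cells made next to none of these transcripts. *Ccl17* had 0.353, 0.403 and 0.0680 FPKM in sh4 cells, against 0.0636, 0.664 and 0.722 FPKM in scr cells. The values spread more widely within each group than between the groups. The log2(FPKM + 0.5) fold change was -0.29 with a standard error of 0.34 (limma over 21106 genes, adjusted p = 0.680), with a 95% interval of -1.11 to 0.53. This interval does not reach the tumor value of 2.43, although the tables differ in unit and library type and were not tested against each other. The cell values also lie near the added 0.5, which narrows log2 differences in cells more than in tumors. The tumor value is moreover the difference by which the gene was chosen.

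*Ccl22* had 0, 0.0187 and 0.00591 FPKM in sh4 cells, against 0, 0 and 0.0217 FPKM in scr cells. It fell under the minimum mean and was not tested. *Ccr4* had 0.0961, 0.0661 and 0.0953 FPKM in sh4 cells, against 0.0847, 0.0953 and 0.300 FPKM in scr cells, with a log2 fold change of -0.16 and a standard error of 0.14 (limma, adjusted p = 0.577, 95% interval -0.49 to 0.18). It passed the minimum through scr plate 3. In this comparison limma called 110 of 21106 genes higher (0.521%) and 160 lower (0.758%), and 0 of the 2 members tested were among them. At an unadjusted p under 0.05 there were 0 of the 2, beside 3986 of the 21106 genes. With the transcript length index as a covariate, the *Ccl17* fold change in cells was -1.10 (limma, adjusted p = 0.0593).

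The cells held the upstream machinery in part, and immune markers hardly at all. *Stat6* had 22.7, 21.1 and 20.0 FPKM in sh4 cells, against 20.9, 21.8 and 23.4 FPKM in scr cells (limma, log2 fold change -0.05, adjusted p = 0.735). The 8 markers of immune cells summed to 1.46, 1.58 and 1.83 FPKM in sh4 cells, against 1.79, 2.02 and 1.89 FPKM in scr cells, most of it *Csf1r*, while the keratin *Krt8* had 269 to 349 FPKM.

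*Il2rg*, the shared subunit of the interleukin-4 and interleukin-2 receptors, was lower in sh4 cells, with 1.76, 1.87 and 1.89 FPKM, against 5.45, 5.37 and 5.62 FPKM in scr cells (limma, log2 fold change -1.35, adjusted p = 0.00203). *Relb*, the NF-κB subunit of mature dendritic cells, had 0.665, 0.678 and 0.540 FPKM in sh4 cells, against 1.12, 1.10 and 1.27 FPKM in scr cells (log2 fold change -0.56, adjusted p = 0.0485). The call on *Relb* was lost without any 1 of the 6 libraries, with a highest adjusted p of 0.169, and that on *Il2rg* was kept in all 6 cases. With the plate number as a block neither was called (limma, adjusted p = 0.0908 for *Il2rg* and 0.259 for *Relb*). These were the 2 genes called among the 15 tested inducing cytokines, receptors and transcription factors. Over all genes in cells, 0.521% were called higher and 0.758% lower. In tumors *Il2rg* (log2 fold change -0.09) and *Relb* (0.18) overlapped between the groups.

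*Cx3cl1*, the gene between the ligands, had 14.5, 15.2 and 15.5 FPKM in sh4 cells, against 16.8, 18.1 and 17.1 FPKM in scr cells, all sh4 plates below all scr plates as in the tumors, beside 13.8% of genes in the cells (limma, log2 fold change -0.20, adjusted p = 0.133). Of the other CC chemokines, *Ccl2* was the main one in culture, with 42.4, 38.3 and 39.4 FPKM in sh4 cells, against 36.6, 44.9 and 42.8 FPKM in scr cells (limma, log2 fold change -0.05, adjusted p = 0.814). The tumor value was -0.86, and the difference between the tables was not tested. Of the 6 other CC chemokines tested in cells, 0 were called by limma and 1 had an unadjusted p under 0.05, beside 3986 of all 21106 genes. That 1 was *Ccl5*, at 0.278, 0.297 and 0.505 FPKM in sh4 cells, against 0.229, 0.0714 and 0.115 FPKM in scr cells (limma, log2 fold change 0.43, adjusted p = 0.191). Its sh4 plates all lay above its scr plates, beside 13.6% of all genes.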

How the data were processed

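For tumors the authors deposited RPKM per gene, made from mRNA libraries read on a HiSeq2500 (Trimmomatic, Tophat, mm9 with Ensembl v70 transcripts, Partek Genomics Suite). For cells the authors deposited FPKM of Ensembl genes and of assembled loci. Their alignment is given as Tophat in the methods, while the submitters' processing notes also list STAR 2.7 and TopHat2 2.1.0. The counting program, strand setting and read numbers are not given in the sources used here, so precision is judged from replicates alone. Nothing states that plates were separate cultures, and p-values for cells measure the spread between plates.

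The 239874 assembled loci of the cell table were left out. Genes averaging 0.1 or more were kept, 0.5 was added before taking log2, and sh4 was compared with scr by limma 3.58.1 (R 4.3.3), with the prior variance following the mean and p-values adjusted by Benjamini-Hochberg. Positions came from GENCODE vM1. The fit was tested on simulated data. Summed values were 399938 to 484868 RPKM in sh4 and 405246 to 455170 RPKM in scr tumors.

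The members and the gene lists were chosen with earlier results of these data known. Genes named were the members, *Rnaseh2c*, the 3 of each list with the highest mean, the 2 with the largest fold change, the 5 nearest each ligand and the CC chemokines. Others are marked in the text, or stand in for a tissue check. Tumor numbers pair the groups, since they mark a shared experiment. The correlation between same-numbered tumors, after removal of group means, was 0.138, 0.330 and -0.117. Alternatives were other pseudocounts, filters and scalings, the replicate block, limma without the trend and leaving out each library. A covariate for transcript length was chosen with the values seen. Exome libraries were not analysed here. Some listed genes are not reported here.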

Additional observations from a re-analysis of the deposited data

Results flagged for a closer look

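Among the listed genes, 2 had every sh4 tumor on one side of every scr tumor and every sh4 culture on the opposite side of every scr culture. Both were lower in sh4 tumors and higher in sh4 cultures. Over all genes compared, 4.98% had all sh4 tumors below all scr tumors, and 13.6% had all sh4 cultures above all scr cultures. The share of all genes with both was not counted. *Areg* had a log2 fold change of -1.002 in tumors and 0.30 in cells (6.75, 5.51 and 6.75 FPKM in sh4 cells, against 5.33, 4.54 and 5.23 FPKM in scr cells). *Cpne2*, a chromosome 8 neighbor of the ligands, had -0.90 in tumors and 0.16 in cells (4.53, 3.97 and 3.92 FPKM in sh4 cells, against 3.60, 3.66 and 3.67 FPKM in scr cells). The difference between tumors and cells was not tested for either gene. Groups of 3 libraries are too small for a search for single outlying samples, and no member of the CCR4 set met this pattern.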

How the results depend on the processing

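The log2 fold changes of *Ccl17* (2.02 to 2.94) and *Ccl22* (0.98 to 1.46) in tumors stayed positive under all alternatives and within 1 SD of replicates of the reported values. The blocked fit, paired by experiment (replicate block), left them at 2.43 and 1.23. *Ccr4* in tumors ranged from -0.01 to 0.23. In cells *Ccl17* stayed negative (-1.10 to -0.08) and uncalled, also with the replicate block (limma, adjusted p = 0.722), and *Ccr4* ranged from -0.39 to -0.09. Without scr plate 3 *Ccr4* in cells fell under the minimum, and with a mean of at least 1 no member in cells, nor *Ccr4* in tumors, could be compared.

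Counts over all genes were less steady. In tumors limma called 0 genes, and 7 (6 higher, 1 lower) with no filter on low values. With the replicate block it called 0, with 911 genes at an unadjusted p under 0.05. In cells it called 270, of which 40.7% were higher. It called 64 with no filter, 408 at a mean of at least 1, 1223 after quantile normalization, 961 after median-ratio scaling (53.2% higher), 171 without the trend, 83 with the transcript length index and 0 with the replicate block (2813 at an unadjusted p under 0.05). Leaving out 1 plate gave 2 (without scr plate 3) to 242 (without scr plate 1). The other plates gave 7 without scr plate 2, 15 without sh4 plate 1, 18 without sh4 plate 2 and 15 without sh4 plate 3. Same-numbered plates did not deviate together (correlations of -0.06, -0.08 and -0.07). *Il2rg* in cells was not called with the block (adjusted p = 0.0908), and *Relb* was not called in most alternatives. The cause of these shifts was not tested. Of the list medians, 20 tumor values and 139 cell values moved by at least 1 SD of replicates, and 294 and 125 did not. Read numbers are unknown, and values under 1 RPKM, *Ccr4* among them, rest on few reads of unknown number.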
